A study of Mus musculus with 10 samples.

Results

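The genes of the proteasome were examined in hearts of E10.5 mouse embryos with and without CAR, the coxsackie-adenovirus receptor, a cell adhesion protein of the immunoglobulin family encoded by Cxadr. Members were chosen by name alone: every gene whose symbol starts with Psm, a letter from a to g and a number, and which has a row on the array that names no other gene. This gave 50 of the 19938 genes on the array. Of these, 48 encode subunits, regulators or assembly factors of the proteasome. The other 2 match by name only: Psmc3ip encodes a partner protein of meiotic recombination, and Psme3ip1 a protein that binds the activator PA28 gamma. They were kept in the counts and are given separately.

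The arrays compared 5 WT and 5 CAR KO samples, each with RNA of 3 pooled hearts (15 hearts per genotype). All embryos were E10.5 offspring of CAR +/- parents of the line B6.Cg-Cxadrtm1/Fgr, and CAR KO embryos lack CAR in every cell. No embryo was treated. CAR KO embryos die before birth, and the labels do not say which samples share a litter. The p-values therefore measure the spread between these pools. Whole hearts were used, so that a changed share of a cell type and a changed level per cell cannot be told apart. The study asked how CAR acts on the beating and the gap junctions of embryonic heart muscle, and the arrays ask which transcripts differ without it.

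Cxadr itself had log2 signals of 8.28, 8.25, 8.46, 8.66 and 8.24 in WT samples 1 to 5 and of 6.69, 6.56, 6.37, 6.47 and 6.23 in CAR KO samples 1 to 5. The genotypes did not overlap. The log2 fold change, always CAR KO minus WT, was -1.91 with a standard error of 0.10 (limma, adjusted over 28944 transcript clusters, adjusted p = 1.40e-05), and it was the only transcript cluster with an adjusted p under 0.05. The 10 heart muscle markers examined, among them Tnnt2, Actc1 and Nkx2-5, all lay above background, and none differed between genotypes at an unadjusted p under 0.05. The background level was a log2 signal of 6.503, the 95th percentile of odorant and vomeronasal receptor genes. Transcripts of liver and yolk sac varied widely between samples of both genotypes: the mean deviation of 17 such genes spanned -0.66 to 1.02 in WT, whereas CAR KO samples spanned -1.16 to 1.87, on the log2 scale. CAR KO sample 5 and WT samples 5 and 2 were the richest in them.

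The proteasome degrades proteins that carry chains of ubiquitin. Its core particle, 20S, is a barrel of stacked rings, with alpha subunits in the outer rings and beta subunits in the inner ones, where the catalytic sites face the cavity. The regulatory particle, 19S, caps the barrel. Its ring of ATPases unfolds substrates and threads them into the core, and its non-ATPase subunits bind ubiquitin and remove it. Core and caps together form the 26S proteasome. Other caps (PA28, PA200) and an inhibitor compete for the same ends of the barrel, and dedicated chaperones assemble the rings. Immune cells and cells exposed to interferon gamma exchange the catalytic subunits for immune forms. Connexins, the proteins of gap junctions, turn over quickly, and proteasomes and lysosomes both take part in it.

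Transcript levels of the proteasome differed little between the genotypes. None of the 50 genes passed an adjusted p under 0.05 (limma, Benjamini-Hochberg over all transcript clusters; smallest adjusted p = 0.99997), nor did any with the methods' t-test after the same adjustment. At an unadjusted p under 0.05 there was 1, Psmc1, which was higher in CAR KO. Over all transcript clusters the share called was 0.00345% by the adjusted p, 2.40% by the unadjusted p and 0.978% by the unadjusted p in the direction of Psmc1, so that 1 of 50 is near the background. For none of the 50 genes were the genotypes free of overlap (0.359% of all transcript clusters). The log2 fold changes ran from -0.07 (Psmc3ip) to 0.17 (Psmc1).

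Taken gene by gene, the intervals show how large a difference in the array signal of whole hearts could have gone unseen. The 95% confidence intervals of all 50 genes stayed inside a 1.5-fold change up or down, as did those of 97.1% of the 14688 genes above background and 97.4% of all genes. Those of 41 genes stayed inside a 1.2-fold change, against 61.3% of all genes, 63.9% of genes above background and 75.7% of 2750 genes in the middle range of the members' signal (log2 signal 10.15 to 11.41), where 98.5% stayed inside a 1.5-fold change. The widest limits were 33.6% higher (Psmb9) and 16.4% lower (Psmc3ip) in CAR KO. The median SD of the members between samples within a genotype was 0.10 on the log2 scale, against 0.13 for genes above background.

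Most differences lay above 0, and all but that of Psmc1 had an interval that held 0. Of the 50 members, 39 had a difference above 0, with a median of 0.04 on the log2 scale. Among all genes 54.2% lay above 0, among genes above background 49.9%, and among genes in the middle range of the members' signal 43.5%, with a median of -0.01 in that range. All 8 genes of the alpha ring, all 7 of the standard beta ring and all 6 of the ATPase ring had a difference above 0. The medians of these rings were 0.07, 0.08 and 0.07. With array weights, which give less weight to noisy arrays, 29 of the 50 lay above 0. The median was then 0.012, against 0.0060 for all genes in the same run. Many of these genes, above all the alpha subunits and the ATPases, shift together from sample to sample, as described next. The standard beta subunits do so less. All of these differences also come from the same arrays, so that the signs are not separate observations.

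**Figure D1:**
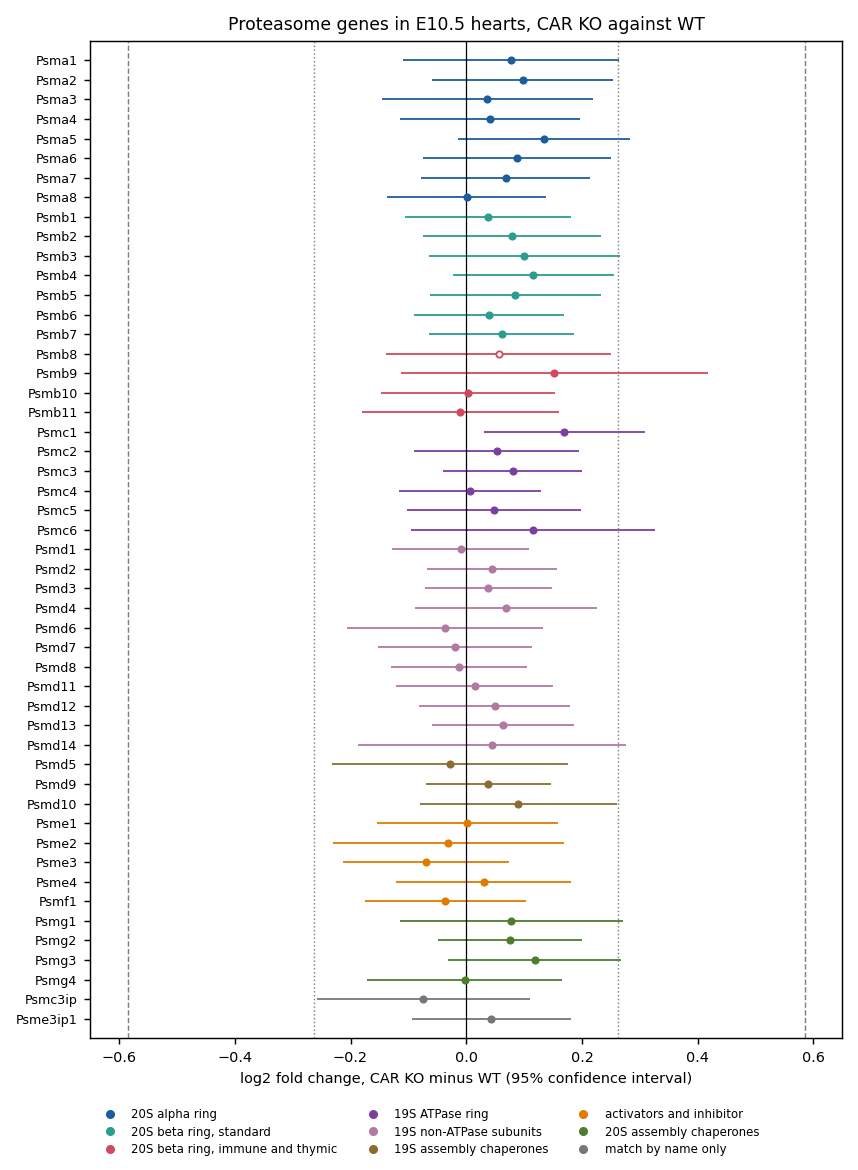
Log2 fold change (CAR KO minus WT, horizontal axis) of 50 genes (open circle: Psmb8, not above background) with 95% confidence intervals, 5 samples per genotype, coloured by subcomplex; dotted lines mark a 1.2-fold and dashed lines a 1.5-fold change. All intervals lie inside the dashed lines, and 39 points lie to the right of 0.

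Across samples, many proteasome genes moved together, while some sets did not. After the mean of each genotype was removed, the 48 proteasome genes formed 1128 pairs with a median Pearson's r of 0.26 over 10 samples. Of these pairs, 360 had an r over 0.5 and 67 an r under -0.5. Pairs of all genes were not counted at these limits, so neither count by itself tells proteasome genes from other genes. The mean r of the 50 members was 0.22, and that of all genes 0.034. These correlations are descriptions, since all points share the same 10 arrays and their scale. After quantile normalization the mean r of the members was 0.15 and that of all genes 0.013.

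The ATPase ring had a mean r of 0.72 among 6 genes, and the 7 standard alpha subunits had one of 0.63. Alpha subunits and ATPases also followed each other, with a mean r of 0.69 between the sets (0.60 after quantile normalization). The values of the 7 standard beta subunits were lower: their mean r was 0.29 among themselves, 0.21 with the alpha subunits and 0.15 with the ATPases. The 11 non-ATPase subunits had a mean r of 0.35 among themselves, and of 0.11 after quantile normalization. The mean r was 0.10 among the 4 chaperones of core assembly, 0.07 among the 3 of the cap and -0.10 among the 5 genes of activators and the inhibitor, against 0.034 among all genes. The genes nearest to the mean of the other 26S subunits were the ATPases Psmc4 (r = 0.95) and Psmc5 (r = 0.94). Among the standard beta subunits, Psmb6 (r = -0.0030), Psmb3 (r = -0.09) and Psmb5 (r = -0.11) had values near 0. Psmc3ip (r = 0.63) and Psme3ip1 (r = 0.62), which are no proteasome genes, followed the 26S mean more closely than many subunits did. The activator Psme1 (r = -0.31), the immune subunit Psmb9 (r = -0.49) and Psmb8 (r = -0.42), which was not above background, ran against it. The immune forms Psmb8, Psmb9 and Psmb10 had a mean r of -0.28 with the ATPases and of -0.28 with the standard alpha subunits. After quantile normalization these values were -0.11 and -0.17. With the standard beta subunits the mean r was 0.18, and 0.27 after quantile normalization.

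**Figure D2:**
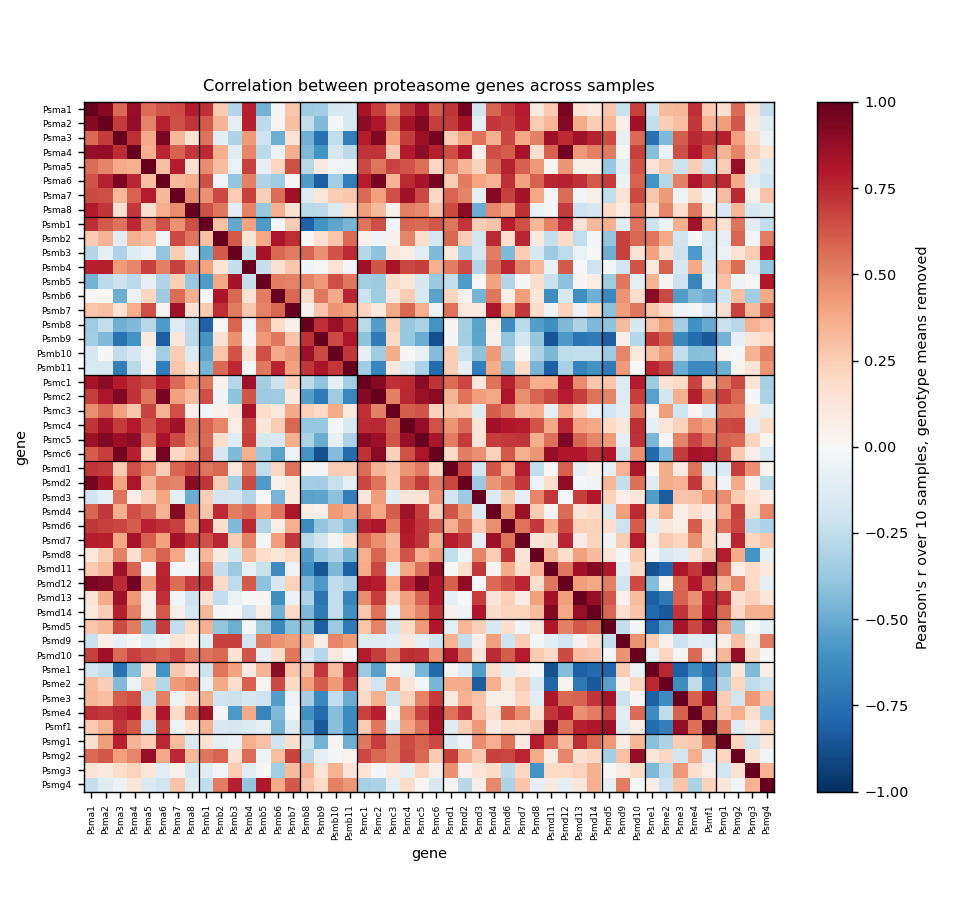
Pearson's r between 48 proteasome genes over 10 samples after removal of genotype means; rows and columns are genes in the order of their subcomplexes, separated by black lines, and the colour gives r. The alpha ring and the ATPase ring form red blocks and are red against each other. The immune beta subunits, with Psmb8 not above background, are red among themselves and with the thymic Psmb11. Outside this block they are red against some genes and blue against others, such as Psmb9 with Psme1 (r = 0.71) and with Psmc6 (r = -0.88).

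The samples behind this pattern were seen in the ring means, given as deviations from each gene's average on the log2 scale. For the alpha ring they were -0.15, -0.02, 0.07, -0.01 and -0.06 in WT samples 1 to 5 and -0.07, -0.06, 0.14, 0.04 and 0.12 in CAR KO samples 1 to 5. For the ATPase ring they were -0.14, -0.04, 0.05, -0.03 and -0.04 in WT and -0.08, -0.0059, 0.11, 0.01 and 0.16 in CAR KO. WT sample 1 was lowest and CAR KO samples 3 and 5 were highest for both rings, and the genotypes overlapped. The standard beta ring stood at -0.10, -0.03, -0.0044, -0.05 and -0.0054 in WT and at -0.0039, 0.01, 0.09, 0.13 and -0.05 in CAR KO. Here CAR KO sample 5, high in the other rings, was below its whole genotype.

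Of these samples, CAR KO sample 5 was the richest in liver and yolk sac transcripts and CAR KO sample 3 the poorest, and both were high in alpha and ATPase transcripts. CAR KO sample 5 also had the lowest mean deviation of endothelial markers (-0.38), one of -0.22 for heart muscle markers, and the lowest array weight (0.329). The part of these in the pattern was not tested. In a run chosen after seeing the data, the 3 samples richest in liver transcripts (WT samples 2 and 5 and CAR KO sample 5) were left out. Then 36 of 50 genes lay above 0 with a median of 0.03, against a median of 0.02 for all genes in the same run. No member passed the adjusted threshold, and 2 of 50 (Psmb5 and Psmb9) had an unadjusted p under 0.05, against 4.19% of all transcript clusters. With the mean of the liver transcripts as a covariate instead, the median of the members was 0.046, against 0.0064 for all genes. Psmc1 then had an unadjusted p of 0.0263 from limma, where 2.72% of all transcript clusters lay under 0.05. The part of liver tissue in the genotype differences was not tested.

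**Figure D3:**
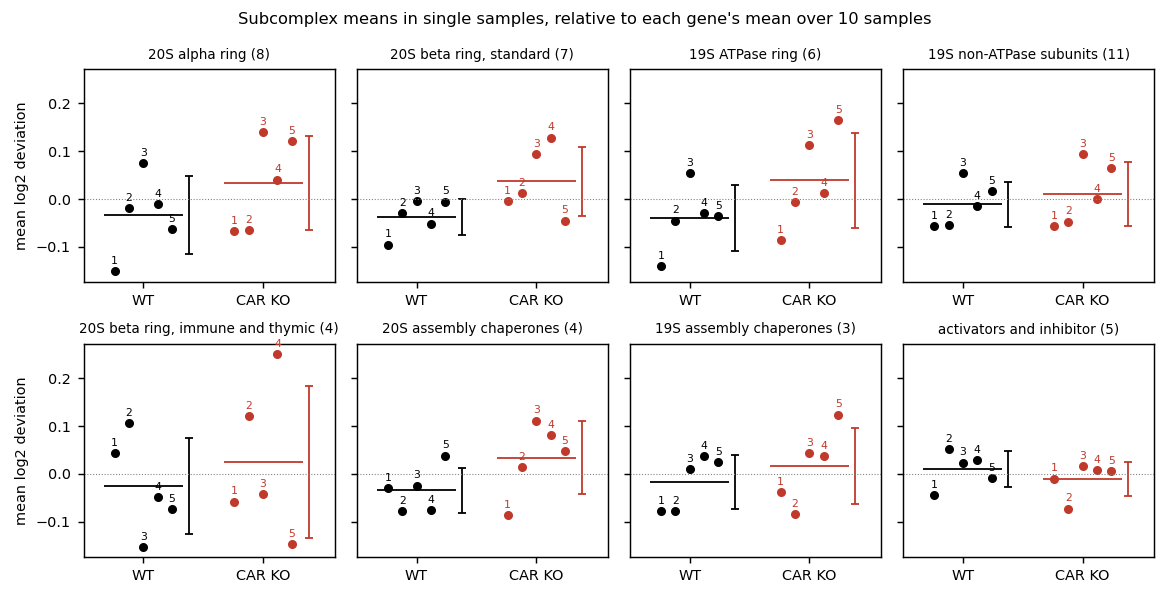
Mean log2 deviation (vertical axis) of the genes of 8 subcomplexes from each gene's mean over 10 samples, in single WT (black) and CAR KO (red) samples numbered 1 to 5; lines show the mean and bars the SD, and the number of genes stands in brackets. The genotypes overlap in every panel, and CAR KO sample 5 is high for the alpha and ATPase rings and low for both beta panels.

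The promoters of the proteasome genes were searched for short motifs, and a link between motifs and the correlations across samples was not tested. RefSeq promoters (GRCm38.p6; 250 bases before and 50 after a gene's start) were at hand for 40 of the 48 proteasome genes. The antioxidant response element, to which the factors encoded by Nfe2l1 and Nfe2l2 bind and through which Nfe2l1 is known to raise proteasome genes, was searched as TGACNNNGC on both strands. It lay in the promoters of 6 of the 40 genes (15%), against 13.99% of 27025 genes: Psmb5, Psmb6, Psmc6, Psmd9, Psmd12 and Psme4. The CCAAT box, searched as CCAAT on both strands, lay in 14 of 40 (35%), against 41.06% of all genes. The gamma-activated site of interferon-responsive genes, searched as TTCNNNGAA, which reads alike on both strands, lay in 3 of 40 (7.5%; Psmb8, Psmd2 and Psmg1), against 9.55%. The TATA box, searched as TATAAA on both strands, lay in 4 of 40 (10%; Psmb4, Psmb8, Psmd1 and Psmd6), against 15.67%. All of these shares are near those of all genes or below them. A match is a string of letters and not a shown binding site.

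The following stretches of 100 bases, from before the start, show where these letters lie in the promoters of genes described below; capitals mark the motif, read 5′ to 3′ on the strand of the gene. Positions count from the start used in the promoter table; relative to it the annotated gene begins at -33 for Psmb6 and at -1 for Psmc6. Psmb5 (chr14:54617996-54618095, minus strand) holds the antioxidant element from 47 to 39 bases before its start, Psmb6 (chr11:70525257-70525356, plus strand) from 9 to 1, and Psmc6 (chr14:45329574-45329673, plus strand), in reverse complement, from 227 to 219. Psmc1 (chr12:100110002-100110101, plus strand) holds a CCAAT box from 175 to 171 bases before its start, and Psmb9 (chr17:34187331-34187430, minus strand), in reverse complement, from 8 to 4.
Psmb5: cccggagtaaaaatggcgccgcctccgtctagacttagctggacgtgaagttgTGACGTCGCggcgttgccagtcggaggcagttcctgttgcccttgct
Psmb6: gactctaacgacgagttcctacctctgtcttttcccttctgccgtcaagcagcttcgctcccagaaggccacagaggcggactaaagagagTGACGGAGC
Psmc6: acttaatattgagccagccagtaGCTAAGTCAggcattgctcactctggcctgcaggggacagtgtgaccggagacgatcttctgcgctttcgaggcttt
Psmc1: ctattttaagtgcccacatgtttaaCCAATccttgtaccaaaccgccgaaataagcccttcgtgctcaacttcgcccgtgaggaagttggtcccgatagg
Psmb9: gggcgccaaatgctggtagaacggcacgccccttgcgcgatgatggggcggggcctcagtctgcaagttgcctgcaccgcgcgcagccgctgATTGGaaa

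Among the alpha subunits, which form the gated outer ring, none had an unadjusted p under 0.05. Psma5 came closest, with log2 signals of 9.99, 10.04, 10.21, 10.04 and 9.95 in WT samples 1 to 5 and of 10.05, 10.23, 10.31, 10.17 and 10.13 in CAR KO samples 1 to 5. CAR KO samples 2 and 3 lay above all WT samples and the others among them. The log2 fold change was 0.13 (95% confidence interval -0.01 to 0.28, unadjusted p = 0.0734 from limma). A dimmer row for Psma5 gave 0.15 (interval 0.0050 to 0.29, unadjusted p = 0.0437 from limma). Psma2 differed by 0.10 (interval -0.06 to 0.25). The 3 rows for Psma3 gave 0.036, 0.029 and 0.029. Psma8, which replaces a standard alpha subunit in the testis, lay just above background, where WT samples had 6.76 ± 0.08 (SD, n = 5) and CAR KO samples 6.76 ± 0.09 (SD, n = 5).

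The standard beta ring holds the 3 catalytic subunits of ordinary cells: Psmb5 with chymotrypsin-like, Psmb6 with caspase-like and Psmb7 with trypsin-like activity. Psmb5 stood at 10.45, 10.46, 10.38, 10.38 and 10.63 in WT and at 10.47, 10.61, 10.56, 10.65 and 10.43 in CAR KO samples 1 to 5. Psmb6 stood at 12.46, 12.60, 12.56, 12.54 and 12.56 in WT and at 12.61, 12.58, 12.61, 12.68 and 12.43 in CAR KO. Psmb7 stood at 11.92, 11.93, 11.97, 11.92 and 11.95 in WT and at 11.91, 11.98, 12.12, 12.08 and 11.90 in CAR KO. For all 3 the genotypes overlapped, and CAR KO sample 5 had the lowest value among CAR KO samples. The log2 fold changes were 0.08 for Psmb5 (interval -0.06 to 0.23), 0.04 for Psmb6 (interval -0.09 to 0.17) and 0.06 for Psmb7 (interval -0.06 to 0.19).

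Of the structural beta subunits, Psmb4 had the smallest p. Its log2 signal was 10.54, 10.76, 10.74, 10.74 and 10.58 in WT and 10.67, 10.81, 10.83, 10.81 and 10.83 in CAR KO samples 1 to 5. All CAR KO samples but sample 1 lay above the WT samples. The log2 fold change was 0.12 (interval -0.02 to 0.26, unadjusted p = 0.0933 from limma). Psmb3 differed by 0.10 on its brighter row and by 0.07 on its dimmer row, and Psmb1 and Psmb2 by 0.04 and 0.08.

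The immune forms Psmb8, Psmb9 and Psmb10 take the places of Psmb5, Psmb6 and Psmb7. Psmb8 was not above background in either genotype, with 6.43 ± 0.12 (SD, n = 5) for WT against 6.48 ± 0.17 (SD, n = 5) for CAR KO. Its fitted difference therefore stands for no measured fold and appears only in counts, in the plot of all members and in ranges over alternative runs. Psmb9 stood at 7.88, 7.98, 7.59, 7.68 and 7.57 in WT and at 7.83, 8.14, 7.84, 8.12 and 7.53 in CAR KO samples 1 to 5. CAR KO samples 2 and 4 were above all WT samples and CAR KO sample 5 below them. Psmb9 had the largest spread of the members (SD within genotypes 0.22) and a log2 fold change of 0.15 (interval -0.11 to 0.42, unadjusted p = 0.235 from limma). Psmb10 stood at 9.30, 9.33, 9.14, 9.30 and 9.29 in WT and at 9.13, 9.31, 9.27, 9.46 and 9.20 in CAR KO, and differed by 0.0033 (interval -0.15 to 0.15). Psmb11, the form of the thymic cortex, lay near background, between 6.76 and 6.93 in the WT and between 6.602 and 7.04 in the CAR KO samples.

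The balance of immune and standard forms was compared within each array. The log2 signal of Psmb9 minus that of Psmb6 was higher in CAR KO by 0.11, and that of Psmb10 minus Psmb7 differed by -0.06. Neither passed the threshold (exact permutation tests, two-sided, p = 0.365 and p = 0.310; adjusted over 3 pairs p = 0.548 for both). The pair of Psmb8 and Psmb5, counted in that adjustment, is not read, since Psmb8 was not above background. The 3 immune forms, of which Psmb8 was not above background, had a mean r of 0.75 among themselves (0.64 after quantile normalization). With Psmb11 included, the mean r of the 4 genes was 0.75 as well (0.52 after quantile normalization). The samples high in the immune forms, WT sample 2 and CAR KO samples 2 and 4, also had the highest lower quartiles over the whole array (6.18, 6.17 and 6.19, against 5.99 to 6.09 in the others). Beyond that normalization, the part of these quartiles in the pattern was not tested. Macrophage and leukocyte markers, 12 of 15 above background, had mean deviations between -0.07 and 0.47 in WT, between -0.25 and 0.27 in CAR KO, and of -0.25 in CAR KO sample 4, where the immune forms were highest. Of the 15 markers 12 had a difference below 0, with a median of -0.14. At an unadjusted p under 0.05, 3 were lower in CAR KO, against 1.43% of all transcript clusters: Lyz2 and C1qa, and Adgre1, which was not above background.

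**Figure D4:**
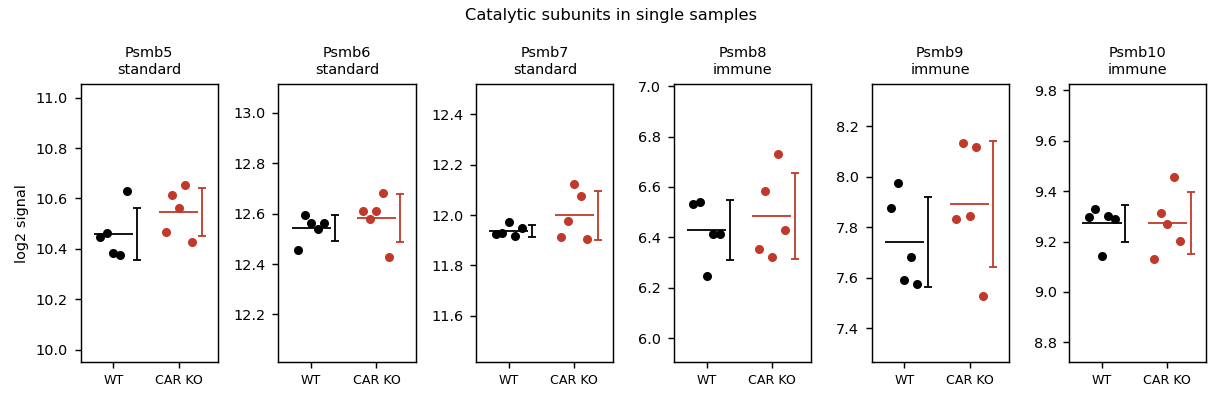
Log2 signal (vertical axis, each panel spanning the same range around its own mean) of the 3 standard and the 3 immune catalytic subunits in single WT (black) and CAR KO (red) samples, 5 each; lines show the mean and bars the SD. The genotypes overlap in all panels, and Psmb9 has the widest spread. Psmb8 was not above background.

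The ATPase ring of the 19S cap is built from Psmc1 to Psmc6. Psmc1 had the smallest p of all members, with log2 signals of 10.74, 10.84, 10.95, 10.87 and 10.78 in WT and 10.87, 10.98, 11.05, 11.01 and 11.12 in CAR KO samples 1 to 5. All CAR KO samples but sample 1 lay above the WT samples. The log2 fold change was 0.17 (standard error 0.06, 95% confidence interval 0.03 to 0.31, unadjusted p = 0.0208 and adjusted p = 0.99997 from limma), or 2.15% to 23.8% higher on the linear scale. A dimmer row for Psmc1 differed by 0.06 (interval -0.15 to 0.27, unadjusted p = 0.543 from limma), so that the rows of this gene differed in size of change. With both rows averaged, Psmc1 no longer had an unadjusted p under 0.05. The same held with array weights, without WT sample 1, and when the 3 liver-rich samples were left out.

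Psmc3 was next in this ring with 0.08 (interval -0.04 to 0.20). Psmc6 varied more, at 10.73, 10.77, 10.96, 10.88 and 10.92 in WT and 10.84, 10.82, 11.09, 10.82 and 11.28 in CAR KO samples 1 to 5. Its difference of 0.12 (interval -0.10 to 0.33) came with CAR KO samples 3 and 5 above all others. Psmc2, Psmc4 and Psmc5 differed by 0.05, 0.0069 and 0.05.

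The 11 non-ATPase subunits of the cap included 7 with a difference above 0 and 4 below, all between -0.04 and 0.07 on the log2 scale. Psmd4, a ubiquitin receptor, differed by 0.07 (interval -0.09 to 0.23) and Psmd13, a scaffold subunit, by 0.06 (interval -0.06 to 0.19). Psmd1 and Psmd2, the large scaffold subunits, differed by -0.0098 and 0.04. A dimmer row for Psmd2 differed by 0.00074. Psmd14, the deubiquitinase of the cap, had the largest spread of this group, with 11.25, 10.89, 11.23, 11.09 and 11.40 in WT and 11.07, 11.07, 11.40, 11.12 and 11.41 in CAR KO samples 1 to 5. Its high samples came from both genotypes, and the difference was 0.04 (interval -0.19 to 0.28). Psmd5, Psmd9 and Psmd10, chaperones that build the cap and then leave it, differed by -0.03, 0.04 and 0.09.

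The remaining caps showed no shared sign. Psme3, which encodes the nuclear activator PA28 gamma, had the largest negative difference of a proteasome gene, with 12.11, 12.04, 12.01, 11.999 and 12.11 in WT and 11.96, 11.83, 12.07, 11.93 and 12.14 in CAR KO samples 1 to 5. The log2 fold change was -0.07 (interval -0.21 to 0.07, unadjusted p = 0.312 from limma). Psme1 and Psme2, the subunits of the interferon-inducible PA28, differed by 0.0020 and -0.03, and another row shared by Psme2 and its copy Psme2b was not used. Psme4, which encodes PA200, differed by 0.03 and the inhibitor Psmf1 by -0.04 (interval -0.18 to 0.10).

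Of the chaperones of core assembly, Psmg3 had log2 signals of 7.56, 7.33, 7.36, 7.30 and 7.30 in WT and 7.36, 7.42, 7.53, 7.58 and 7.54 in CAR KO samples 1 to 5. WT sample 1 stood with the CAR KO samples, and CAR KO sample 1 stood close to the other WT samples. The log2 fold change was 0.12 (interval -0.03 to 0.27, unadjusted p = 0.111 from limma), and without WT sample 1 it was 0.17 (unadjusted p = 0.0245 from limma). Psmg1, Psmg2 and Psmg4 differed by 0.08, 0.08 and -0.0031. Psmc3ip and Psme3ip1, which match by name only, differed by -0.07 (interval -0.26 to 0.11) and 0.04 (interval -0.09 to 0.18).

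Genes that act with the proteasome were close to equal as well. Of 34 partners listed, 25 had a row of their own, all above background. None passed the adjusted or the unadjusted threshold of 0.05 (limma; 2.40% of transcript clusters passed the latter). Of the 25, 11 lay above 0 and 14 below, with a median of -0.02 on the log2 scale. The smallest p-values belonged to Rad23b, which delivers ubiquitinated proteins, with 0.08, Akirin2, an adaptor for nuclear import of proteasomes, with 0.07, and Zfand2a, a stress-induced partner of the cap, with -0.08. Nfe2l1, the factor named above, differed by -0.05 (interval -0.24 to 0.15), Pomp, the core maturation factor, by 0.06 and Sem1, a small subunit of the cap, by -0.03. All 25 intervals stayed inside a 1.5-fold change.

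The peptides made by immune proteasomes feed antigen presentation. Of 20 genes of this pathway and of interferon gamma signalling, 16 had a row of their own and none passed either threshold, with 7 above 0, 9 below and a median of -0.02. Erap1, which trims peptides, had -0.16 (interval -0.37 to 0.06), Irf8 0.11 (interval -0.07 to 0.28) and the loading factor Tapbp -0.09 (interval -0.27 to 0.08). Tap1, a peptide transporter, differed by 0.03.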

How the data were processed

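RNA of 10 samples was hybridised to Affymetrix Mouse Gene 1.0 ST arrays. The authors deposited 1 table of log2 signals per transcript cluster; the submitters' processing notes name MAS5, with nothing further on normalization in the sources. Array medians lay between 7.65 and 7.73, no samples held identical values, and the number of arrays limits the precision. Samples were grouped by their labels. Of 35556 rows, 6612 control rows were left out. Genes were named from the platform annotation, and the brightest row naming 1 gene stood for it; 5 members had several rows. List symbols were updated through GRCm38.p6 synonyms.

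The 2 genotypes were fitted in limma 3.58.1 (R 4.3.3; lmFit and eBayes on all clusters) with Benjamini-Hochberg adjustment over 28944 clusters. The procedure was tested on simulated data. Members and lists were chosen with earlier results of these data known. Genes named were the target, the catalytic subunits, the 2 smallest p-values of each subcomplex, the 3 of each list, the 5 smallest p-values and 3 largest SDs of all members, members not above background and matches by name only; other members are given as values. Alternatives were quantile normalization, median centring, array weights, averaged rows, a filter on dim clusters, the methods' t-test, a robust prior with trend, a block for the sample number and omission of single samples. Chosen after seeing the data were the runs without the 3 samples richest in liver transcripts, with their mean as a covariate, and without the 2 genes matching by name only. Figures were drawn with matplotlib 3.10.9.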

Additional observations from a re-analysis of the deposited data

Results flagged for a closer look

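Among 132 groups of 5 samples, 6 had a sample far from the other 4 by Dixon's gap, given here as the share of the group's range; Chance flags about 1 in 20 groups, here 6.6. The lowest CAR KO value came from sample 1 for Psmb4 (0.830) and Psmc3 (0.773). WT sample 3 was the lowest for Psmb10 (0.799) and WT sample 1 the highest for Psmg3 (0.769). CAR KO sample 4 was the highest for Psmd9 (0.794) and CAR KO sample 2 the lowest for Psma8 (0.830).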

How the results depend on the processing

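Under all alternatives run, no member, partner or antigen presentation gene passed an adjusted p under 0.05, and Cxadr did (-1.97 to -1.84 with samples left out in turn). All members tested kept intervals within a 1.5-fold change, 47 of them with the filter on dim clusters, which tested fewer. Within a 1.2-fold change lay 33 to 46. Between 29 (array weights) and 42 members lay above 0, with medians from 0.01 to 0.07. The count at an unadjusted p under 0.05 was 1 to 3 of 50 with samples left out: 3 without CAR KO sample 1 (2.93% of all clusters in that run), and 2 without CAR KO sample 5 (3.56%) or WT sample 3 (2.004%). It was 2 (Psmb5 and Psmb9; 4.19% of clusters) when the 3 liver-rich samples were dropped. A replicate block for the sample number gave 2 (Psmc1 and Psma5; 4.51% of clusters). With array weights Psmc3ip (-0.16), a match by name only, had an unadjusted p under 0.05 from limma, where 6.26% of clusters did. Deviations of samples numbered 1 to 5 correlated between the genotypes at 0.201, 0.474, 0.331, 0.073 and 0.561, and the best match carried the same number for 3 of 5 WT and 4 of 5 CAR KO samples, which hints at pairs without the design stating them. The labels do not say what a number marks and not every correlation was over 0.1, so the numbers were not taken as pairs. The block changed no other call. An exact permutation test over 5 pairs cannot give a two-sided p under 0.05. The catalytic forms were therefore read from the unpaired tests only. The mean r of the members was 0.33 with median centring. Some differences turned sign: Psmb10 with array weights (-0.032), median centring (-0.0032) and the liver covariate (-0.0012), Psmd10 (-0.011) and Psme3ip1 (-0.030) with array weights, and Psmd14 (-0.023) and Psme3ip1 (-0.0050) without the liver-rich samples. With samples left out, Psmb10 ran from -0.042 to 0.039, Psmd14 from -0.026 to 0.102, Psmb8, not above background, from -0.0062 to 0.097, and its difference from Psmb5 within arrays from -0.076 to 0.017. Apart from fewer genes or samples, the cause was not tested.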
